A study of Mus musculus with 14 samples.

Results

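The effect of ACSS2 loss in cells that already lack ACLY was measured by comparing DKO1 cells, which lack both enzymes, with ACLY KO cells, which retain ACSS2. All libraries came from mouse hepatocellular carcinoma (HCC) cells that carry floxed Acly alleles (Acly f/f) and arose from liver tumors induced by diethylnitrosamine. ACLY KO (cell line D42C4V) was represented by 4 libraries and DKO1 (cell line D42C4 Sg2-2) by 3 libraries, which are replicates 1, 3 and 4, so 7 of the 14 libraries in the series were compared, while all 14 set the spread in the fit. The other 7 libraries were 4 from wild-type (WT) cells (D42V) and 3 from ACSS2 KO cells (D42 Sg2-3, replicates 1, 2 and 4), and they gave the same gene deletion in ACLY-proficient cells. Acly had been removed by adenoviral Cre, and the ACLY KO line was then grown out from a single cell. Acss2 was disrupted by CRISPR-Cas9 with the same guide, directed at the first exon, in DKO1 and in ACSS2 KO. Cells were treated with puromycin after transduction with the LentiCRISPR v2 vector. DKO1 and ACSS2 KO are single-cell clones, whereas the WT and ACLY KO libraries are from populations transduced with the empty vector. The clone and the genotype therefore cannot be told apart in either comparison. Cells of all 4 genotypes were kept in DMEM with calf serum before RNA extraction. Every gene with a mean of at least 10 over the 7 libraries was described, 12683 of the 24972 gene symbols in the table.

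Outside mitochondria, acetyl-CoA is made from citrate by ACLY and from acetate by ACSS2, in the cytosol as well as in the nucleus. This acetyl-CoA feeds the mevalonate pathway to sterols, fatty acid synthesis and elongation, and the acetylation of histones. Sterol enzyme genes are controlled by SREBP-2, a transcription factor released from the endoplasmic reticulum when sterols are scarce and held back there by the INSIG proteins.

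Values are the normalized read counts of the authors. They are listed in the order of replicates 1 to 4 for ACLY KO and replicates 1, 3 and 4 for DKO1. Fold changes are log2 differences of value + 1 between genotypes, given with their SE, and p-values are from limma with Benjamini-Hochberg adjustment over all 12683 genes. The paper's legend for a plot of these libraries calls its points biological replicates. The paper also lists RNA-seq among the exceptions to its independent repeats of experiments. No source states that the libraries of a genotype were separate cultures, so p-values measure only the spread between these samples. The values of one library summed to between 23565707 and 26946164 among the 7 compared. DKO1 replicate 4 stood apart from the others by transcript length. Relative to the ACLY KO mean, its median was 0.76 higher (log2) for the fifth of genes with the shortest transcripts, up to 1756 bases, and -0.64 for the fifth with the longest, from 5128 bases. The same medians were -0.11 and 0.067 in DKO1 replicate 1 and -0.0031 and -0.018 in DKO1 replicate 3. Results were therefore also computed without DKO1 replicate 4. Hepatocyte markers were sparse in both genotypes: 14 of the 29 listed were below 10 in all 7 libraries, and Apoc3 was at 0. Alb, which encodes albumin, read 22.5, 25.4, 24.8 and 20.8 in ACLY KO and 7.1, 16.4 and 10.5 in DKO1. Cholangiocyte and progenitor markers such as Krt7 and Spp1 were abundant, with 10 of 12 tested.

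The targeted genes were examined first. Acly (chr11:100476352-100528000 in GRCm38) read 1084, 971, 984 and 965 in ACLY KO and 956, 949 and 931 in DKO1, with a log2 difference of -0.081 ± 0.065 and an adjusted p of 0.39. The groups did not overlap, but the difference missed the threshold. WT libraries averaged 6049.7 ± 423 (SD, n = 4) and ACSS2 KO libraries 5684 ± 124 (SD, n = 3). Acss2 (chr2:155518043-155562743) read 787, 660.4, 739 and 685 in ACLY KO and 578, 571 and 455 in DKO1. Its transcript was thus still counted in all 3 DKO1 libraries, at levels below every ACLY KO library, and changed by -0.43 ± 0.094 on the log2 scale (adjusted p = 0.0044), or -0.32 without DKO1 replicate 4. In ACLY-proficient cells Acss2 read 239, 252, 233 and 224 in WT and 127, 135 and 135 in ACSS2 KO, a change of -0.84 ± 0.094 (adjusted p = 2.9e-05). The ACSS2 effect on its own transcript was smaller in ACLY-deficient cells, with a difference between the effects of 0.41 ± 0.13 (adjusted p = 0.038).

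The genes beside Acss2 on chromosome 2 were described after their values had been seen. Ggt7, a gamma-glutamyltransferase family gene at chr2:155490379-155514891, read 159, 178, 148 and 160 in ACLY KO and 35.1, 46.2 and 38.8 in DKO1 (log2 fold change -1.99 ± 0.14). Its WT mean was 29 ± 3.32 (SD, n = 4), so ACLY KO was the highest of these genotypes. Gss, which encodes glutathione synthetase and starts just beyond the end of Acss2 at chr2:155563181-155592810, rose by 0.74 ± 0.13 (adjusted p = 0.0011). Trp53inp2, a regulator of autophagy at chr2:155381811-155389847, rose by 1.15 ± 0.099.

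Across all genes tested, 1827 (14.4%) were higher and 1755 (13.8%) were lower in DKO1 at an adjusted p under 0.05, and the median log2 fold change was -0.0041. Changes beyond a log2 fold change of 1.5 at an adjusted p under 0.01 numbered 136 higher (1.07%) and 142 lower (1.12%). With the spread taken from the 7 compared libraries alone, 1165 were higher and 1066 were lower. Without DKO1 replicate 4, 2064 genes (16.3%) were higher and 1950 (15.4%) were lower.

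The 15 largest rises and falls were taken where the mean reached 50 and groups did not overlap, and the 8 largest of each where the mean reached 1000. The rises included single genes of liver and epithelial function. Hepatocyte markers as a list were called both ways, with 2 higher (Tat and Apob) and 2 lower (Alb and Prox1) of 12 tested. Tat, which encodes the tyrosine aminotransferase of amino acid breakdown in liver, read 33.1, 22.6, 30 and 26.5 in ACLY KO and 385, 336 and 276 in DKO1 (log2 fold change 3.52 ± 0.21). Gc, which encodes the serum vitamin D binding protein, rose from 308, 305, 273 and 309 to 1897, 1965 and 2174, a change of 2.75 ± 0.086 (adjusted p = 6.6e-10). Ephx2, the soluble epoxide hydrolase, read 42.7, 31.1, 36.9 and 38.4 in ACLY KO and 249, 254 and 477 in DKO1. These genes were chosen for groups that did not overlap. The WT means were 27.9 ± 5.54 for Tat, 216 ± 20.6 for Gc and 30.4 ± 7.59 for Ephx2 (SD, n = 4), near the ACLY KO levels. S100g, a calcium-binding protein of epithelia, read 29.6, 36.8, 30 and 39.7 in ACLY KO and 218, 292 and 929 in DKO1, with the highest value in DKO1 replicate 4. Gchfr, the feedback regulator of tetrahydrobiopterin synthesis, had the same order of libraries, with 12.9, 13.2, 12.9 and 11.5 against 67.9, 88.2 and 264. Plxna4, a semaphorin co-receptor, was instead lowest in replicate 4 among the DKO1 libraries, at 156, 164 and 70.5 against 10.6, 10.4, 15.4 and 18.2. Nova1, an RNA-binding splicing regulator, rose by 2.90 ± 0.35 and the transmembrane protein gene Tmem205 by 2.89 ± 0.33. The genes Ddx3y, Eif2s3y, Uty and Kdm5d of chromosome Y rose by 3.50 to 3.71, and the same genes fell in ACSS2 KO against WT, with log2 fold changes from -2.52 to -2.24. They have homologs on chromosome X, and how reads that fit both copies were counted is not given in the sources used here.

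For another set of rises the level was lowest in ACLY KO among the 4 genotypes. Crtap, needed for collagen prolyl hydroxylation, read 234, 169, 189 and 196 in ACLY KO, 1267, 1282 and 1364 in DKO1 and 1335, 1414, 1195 and 1257 in WT. Lysmd2 read 29.2, 22.8, 12.8 and 13.9 in ACLY KO, 133, 149 and 243 in DKO1 and 74.5, 123, 66.7 and 72.2 in WT. The gene 3830406C13Rik read 26.8, 35.4, 28.4 and 24, 204, 185 and 216 and 194, 186, 204 and 204 in the same order. The ranges of DKO1 and WT overlapped for Crtap and 3830406C13Rik, whereas every WT library was below every DKO1 library for Lysmd2. Among the abundant genes, Hist1h2bc (a histone H2B gene with near-identical copies) rose by 2.45 ± 0.21, the phosphatidylserine phospholipase gene Pla1a by 1.77 ± 0.072, the tight junction gene Cldn2 by 1.55 ± 0.081, and Sat1, which acetylates spermidine and spermine with acetyl-CoA, by 1.43 ± 0.22. The glucuronosyltransferase gene Ugt2b36, which has close paralogs, read 825, 774, 814 and 868 in ACLY KO and 1803, 2061 and 3376 in DKO1. Sat1 values were 1206, 1184, 1103 and 1439.5 in ACLY KO and 2534, 2687 and 5295 in DKO1, highest in replicate 4.

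Falls included collagen genes and genes of a collagen receptor and an ephrin receptor whose mean was highest in ACLY KO. Col1a1, the main chain of type I collagen, read 2497, 2260.2, 2651 and 2409 in ACLY KO, 504, 493 and 434 in DKO1 and 458, 428, 374 and 454 in WT, so that DKO1 differed from ACLY KO by -2.36 ± 0.086 (adjusted p = 2.1e-09). Epha7, an ephrin receptor, read 6160.1, 6016, 6064 and 5213 in ACLY KO, 1365, 1314 and 957 in DKO1 and 809, 692, 694 and 732 in WT. Col6a2 and Col6a1, chains of type VI collagen, fell to 0.136 and 0.363 of their ACLY KO levels. The lack of overlap between DKO1 and ACLY KO was part of the rule that chose these 4 genes. Ddr2, a receptor tyrosine kinase for fibrillar collagen, read 4112, 4175, 4164 and 3485 in ACLY KO and 1332, 1235 and 846 in DKO1. It was higher in ACSS2 KO (3107 ± 396, SD, n = 3) than in WT (1304 ± 144, SD, n = 4), and the effects differed by -3.08 ± 0.21 (adjusted p = 4.9e-07).

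Ogdhl, which encodes a subunit of a 2-oxoglutarate dehydrogenase-like complex, read 399, 386, 348 and 369 in ACLY KO and 62.7, 37.4 and 64.2 in DKO1, while it was higher in ACSS2 KO (319.8, 321 and 327) than in WT (109.9, 111, 113 and 139.5). Casd1, the sialic acid O-acetyltransferase that uses acetyl-CoA, read 559.9, 559, 606 and 554 in ACLY KO and 78.8, 77.1 and 88.6 in DKO1, below the WT values of 375, 413, 436 and 429.8. The lowest level of Casd1 was thus that of DKO1. The same held for the organic anion transporter Slco4a1, at 34.3, 40.6 and 57.3 in DKO1 against 289, 274, 298 and 299 in ACLY KO, and for Ms4a4d, at 42, 41 and 36.4 against 254, 257, 259 and 270.5. The rest of the 15 largest falls were 4930447F24Rik, Fam19a2, 1110015O18Rik, Arap3, Zfp532, Rap1gap2, Pmfbp1, Malrd1, Mctp1 and Pakap. Pakap, whose symbol overlaps other genes, read 0, 49.2 and 59.1 in DKO1, so its fold change rested partly on 1 library at 0 (adjusted p = 0.042). When single libraries were left out, its log2 fold change ranged from -4.14 to -1.19 and its adjusted p from 0.0075 to 0.099. Among abundant genes Tmem132a, Stra6 (the receptor that takes up retinol) and Unc5b (a netrin receptor) fell, with log2 fold changes of -1.52 ± 0.071, -1.21 ± 0.16 and -1.20 ± 0.061.

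**Figure D1:**
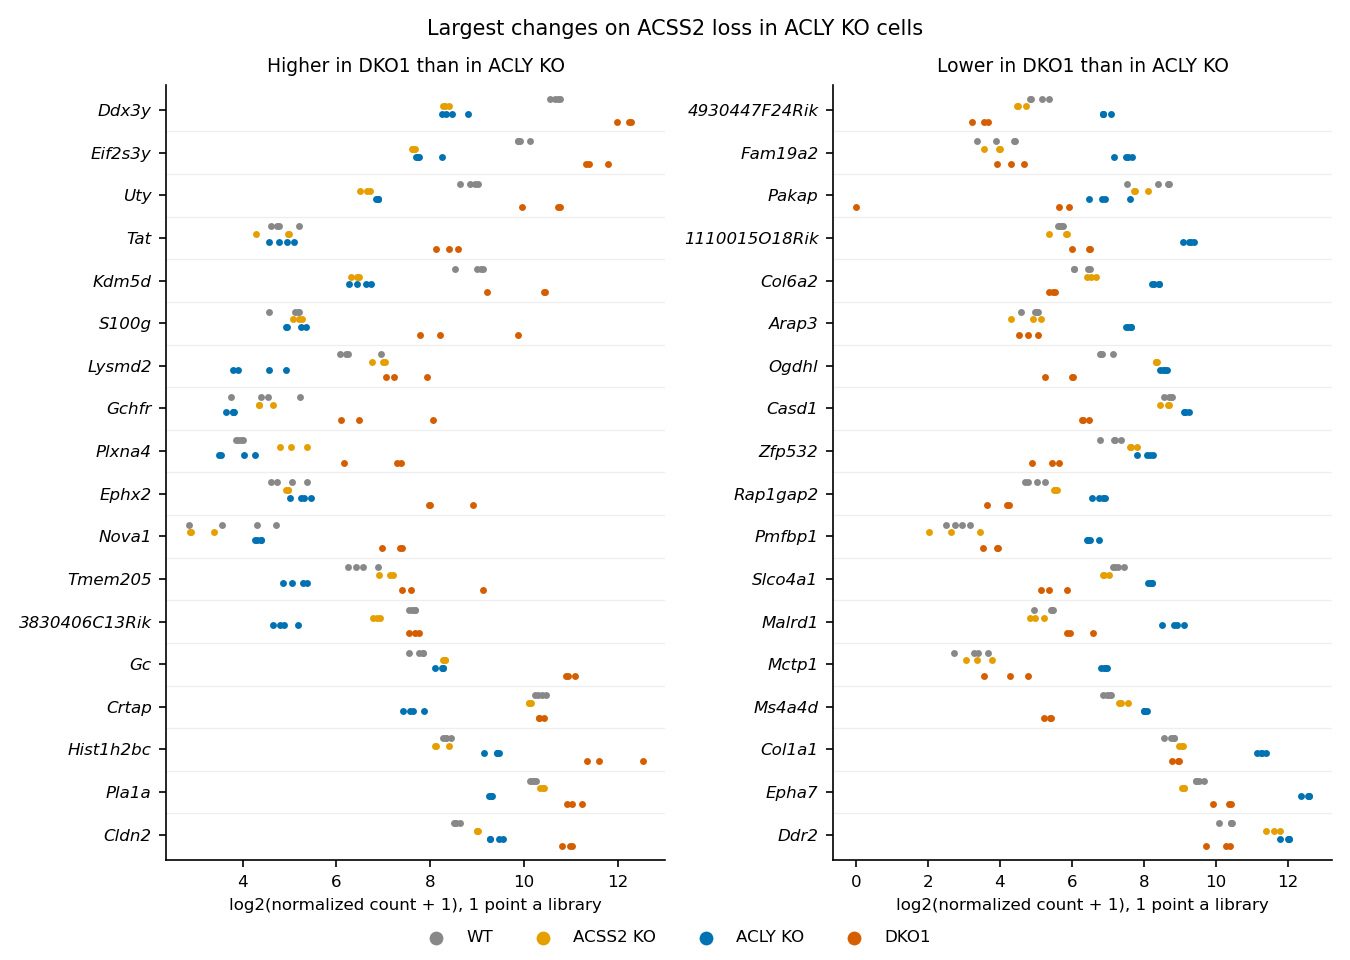
Expression of the 18 largest or most abundant rises (left) and falls (right) in DKO1 against ACLY KO, as log2(normalized count + 1), with 1 point for each library and 1 row for each genotype within a gene. The genes were chosen so that DKO1 points lie apart from ACLY KO points. WT and ACSS2 KO points lie with ACLY KO for Tat, Gc and Ephx2, and with DKO1 for Crtap, Col1a1 and Fam19a2.

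Many enzymes of sterol synthesis rose in DKO1. Of 21 tested members, 12 were higher and 2 were lower, with a median log2 fold change of 0.22 against -0.0041 for all genes. Without DKO1 replicate 4 the counts were 14 and 2, with a median of 0.29. The promoters of 4 genes that represent the list are shown, because 13 of the 16 members with a RefSeq promoter (81.2%) held a CCAAT box with its flank (spelled CCAATCA, also CCAATGA, or else CCAATAG, on either strand) in the window from 250 bases before to 50 bases after the start, against 15.9% of all 27025 genes with such a window and 19.8% of those tested. A sterol regulatory element of the spellings searched (TCACCCCAC, TCACACCAC, TCACCCTAC or ATCACCCCA, on either strand, the first overlapping the last by all but 1 letter) was in 1 of the 16, Hmgcs1, against 1.29% of all genes. CCAAT boxes were in 6 of 8 members that rose and in all 6 that were not called. Each line gives the 250 bases before the start on the strand of the gene, in the GRCm38.p6 sequence of RefSeq, with the matches in capitals.
Idi1 (chr13:8885356-8885605, + strand): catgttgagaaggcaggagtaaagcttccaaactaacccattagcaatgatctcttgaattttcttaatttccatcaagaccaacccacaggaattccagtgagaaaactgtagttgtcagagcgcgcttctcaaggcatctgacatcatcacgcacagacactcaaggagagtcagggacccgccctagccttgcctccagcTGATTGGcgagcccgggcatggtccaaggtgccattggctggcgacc
Mvd (chr8:122443423-122443672, - strand): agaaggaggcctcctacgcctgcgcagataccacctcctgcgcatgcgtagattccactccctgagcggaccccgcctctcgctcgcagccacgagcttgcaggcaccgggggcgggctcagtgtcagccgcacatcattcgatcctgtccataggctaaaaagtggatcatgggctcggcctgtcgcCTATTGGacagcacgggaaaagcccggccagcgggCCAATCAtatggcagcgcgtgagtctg
Msmo1 (chr8:64733579-64733828, - strand): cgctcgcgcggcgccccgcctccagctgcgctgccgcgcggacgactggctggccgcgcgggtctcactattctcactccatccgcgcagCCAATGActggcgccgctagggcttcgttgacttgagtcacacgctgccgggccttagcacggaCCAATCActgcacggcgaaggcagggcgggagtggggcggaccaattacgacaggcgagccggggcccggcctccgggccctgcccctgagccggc
Hmgcs1 (chr13:119690101-119690350, + strand): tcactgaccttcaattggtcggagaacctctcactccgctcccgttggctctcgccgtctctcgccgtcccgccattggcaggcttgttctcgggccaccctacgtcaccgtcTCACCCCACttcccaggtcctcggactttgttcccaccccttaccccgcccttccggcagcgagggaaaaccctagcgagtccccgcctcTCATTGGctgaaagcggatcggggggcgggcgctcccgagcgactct

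Along the pathway, some early enzymes were not called. Hmgcs1, which condenses acetyl-CoA with acetoacetyl-CoA, read 8684, 7852, 8453 and 7837 in ACLY KO and 8412, 8302 and 7134 in DKO1, and the groups overlapped (log2 difference -0.048 ± 0.069, adjusted p = 0.63). Mvk, the mevalonate kinase, differed by 0.22 ± 0.15 (adjusted p = 0.28). The steps that follow were higher. Pmvk, the phosphomevalonate kinase, read 838, 739, 826 and 848 in ACLY KO and 1201, 1301 and 2252 in DKO1. Mvd, the decarboxylase that makes isopentenyl diphosphate, read 2723, 2084, 2412 and 2353 and 2981, 3053 and 4247. Idi1, which isomerizes that product, read 5561, 4995, 5366 and 5259 and 10229, 9969 and 10292, close to 2 times the ACLY KO level in all 3 DKO1 libraries (fold 1.92, log2 fold change 0.94 ± 0.06, adjusted p = 2.5e-07). Fdps, the farnesyl diphosphate synthase, rose by 0.86 ± 0.2 and by 0.56 without DKO1 replicate 4, whose value was the highest of its 8962, 9159.6 and 16729.7.

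After the branch to squalene, Fdft1 (squalene synthase) rose by 0.42 ± 0.087 and Sqle (squalene epoxidase) by 0.60 ± 0.052. Sqle read 8016, 7209, 7915 and 7707 in ACLY KO and 11569.9, 11964 and 11409 in DKO1, with little spread within either genotype. Msmo1, Nsdhl, Sc5d and Cyp51, which remove or desaturate positions of the sterol rings, rose by 0.70 ± 0.15, 0.40 ± 0.098, 0.22 ± 0.055 and 0.22 ± 0.076. Ggps1, which makes geranylgeranyl diphosphate beside the sterol branch, rose by 0.54 ± 0.066. The falls were in both sterol C14 reductases. Tm7sf2 read 88.2, 53, 59.1 and 54.1 in ACLY KO and 29.3, 32.2 and 27.6 in DKO1, and Lbr, which is also a nuclear envelope protein, read 4378, 4271, 4242 and 4218 and 3468, 3457 and 2772. Lss, Dhcr7 and Hsd17b7 missed the threshold with all libraries and passed it without DKO1 replicate 4, with log2 fold changes of 0.29, 0.26 and 0.29, whereas Cyp51 was called with all libraries and not when any of 6 of the 7 was left out (adjusted p of 0.028 to 0.13 over the 7).

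The same list moved the other way in ACLY-proficient cells. In ACSS2 KO against WT none of its members was higher and 11 were lower, with a median of -0.47, against 14.3% higher and 10.7% lower among all genes tested in that comparison. The ACSS2 effect differed between the backgrounds for 15 members at an adjusted p under 0.05, against 26.5% of all genes in either direction, and 7 members were called in opposite directions. Idi1 fell from 6805, 7784, 7276 and 7144 in WT to 4972, 4728 and 4694 in ACSS2 KO, so that the effects differed by 1.54 ± 0.084 (adjusted p = 6.8e-08). The effects on Sqle differed by 1.03 ± 0.074. Hmgcs1, which was not called in DKO1, fell in ACSS2 KO (-0.49 ± 0.069), and its difference between the effects was 0.45 ± 0.098 (adjusted p = 0.0046). Of the members, 3 lay in chromosome stretches described further on whose genes were mostly higher in DKO1. Outside these stretches 9 of 18 were higher and 2 were lower.

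**Figure D2:**
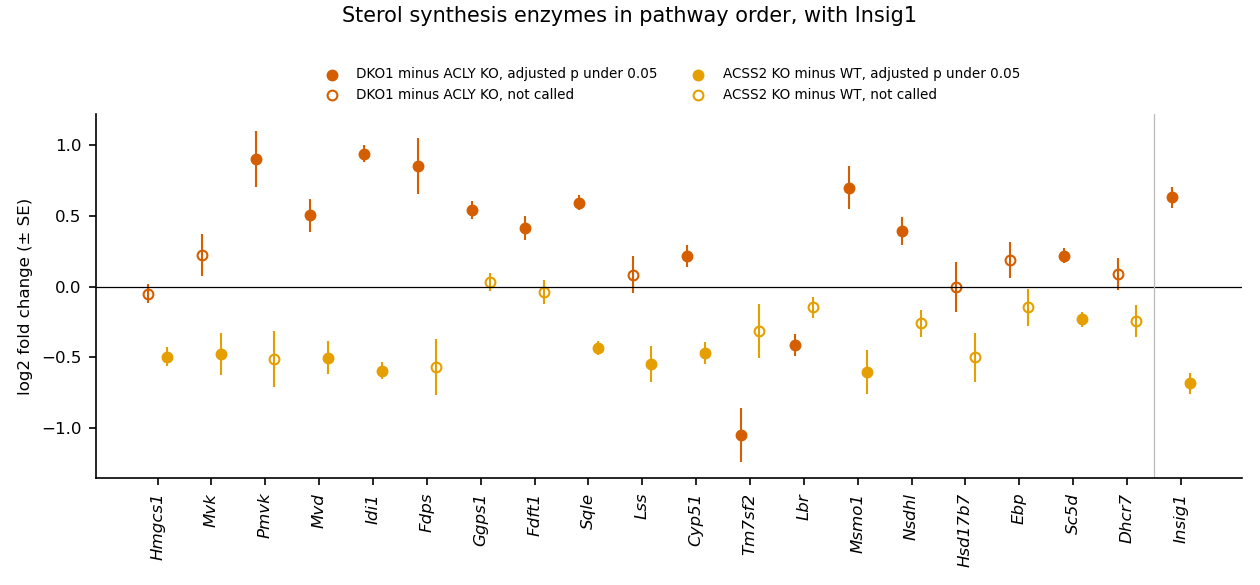
Log2 fold changes (points) with SE (bars) of sterol synthesis enzymes in the order of the pathway, with Insig1 at the right, in DKO1 minus ACLY KO and in ACSS2 KO minus WT. Filled points passed an adjusted p under 0.05. From Pmvk to Ggps1 the DKO1 values lie between 0.51 and 0.94, while all called ACSS2 KO values lie below 0.

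Control genes of the pathway gave mixed values. Insig1, a target of SREBP-2 whose product retains SREBP in the endoplasmic reticulum, read 5275, 4332, 4614 and 4563 in ACLY KO and 7598, 7387 and 6809.8 in DKO1 (log2 fold change 0.63 ± 0.071, adjusted p = 3.4e-05), and it fell in ACSS2 KO. Insig2 rose by 0.35 ± 0.058. Srebf2, which encodes SREBP-2, was 7678, 7124, 7927 and 6893 in ACLY KO and 6056, 6296 and 3904 in DKO1, a change of -0.48 ± 0.16 (adjusted p = 0.035) that was not called without replicate 4 (adjusted p = 0.1) or without ACLY KO replicate 1, 2 or 3. Srebf1 differed by -0.13 ± 0.066 (adjusted p = 0.16). Abca1, which exports cholesterol, read 63.1, 78.4, 79.9 and 53.1 and 239, 202 and 96.5, a rise of 1.29 ± 0.28, and Soat1, which esterifies it, rose by 0.93 ± 0.17. In all, 7 of 21 tested genes of sterol uptake and control were higher and 2 were lower, and without DKO1 replicate 4 the counts were 9 and 1.

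Of 25 acetyl-CoA supply genes tested, 5 (20%) were higher and 5 (20%) lower, against 14.4% and 13.8% of all genes, and 8 were higher without DKO1 replicate 1. Acat2, the cytosolic thiolase that joins 2 acetyl-CoA into acetoacetyl-CoA ahead of Hmgcs1, read 5658, 4541, 4990.5 and 5162 in ACLY KO and 7652, 7753 and 8585 in DKO1 (log2 fold change 0.65 ± 0.072, adjusted p = 2.7e-05), and it fell in ACSS2 KO (-0.27 ± 0.072). Slc25a1, the mitochondrial citrate carrier, read 803, 695, 724 and 804 and 954, 912 and 1188, a rise of 0.42 ± 0.091. Pdha1, a subunit of pyruvate dehydrogenase on chromosome X, rose by 0.54 ± 0.061. Pdk3, a kinase that inhibits that complex, fell from 512, 568, 531 and 546 to 283, 317 and 344. Dlat, the acetyltransferase subunit of the same complex, fell (-0.26 ± 0.055). Acss3, a mitochondrial acyl-CoA synthetase, read 46.5, 48.1, 49.2 and 48.5 in ACLY KO and 12.4, 15.6 and 9.41 in DKO1, while Acss1, the mitochondrial acetyl-CoA synthetase, read 0, 0.936, 0 and 0 in ACLY KO and 0, 0 and 1.15 in DKO1 and was not tested. Aacs, which activates acetoacetate in the cytosol, differed by -0.14 ± 0.064 (adjusted p = 0.13).

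Genes of coenzyme A turnover and acyl-CoA thioesterases were higher in 10 of 20 tested and lower in 1, with a median of 0.25, and without DKO1 replicate 4 the counts were the same (10 and 1). Vnn1, the pantetheinase that recycles pantothenate, read 2898, 3007, 2985 and 3055 in ACLY KO and 6598, 6657 and 5754 in DKO1, higher in all 3 DKO1 libraries (log2 fold change 1.08 ± 0.064). Pank2 and Pank4 of the pantothenate kinase family rose by 0.27 ± 0.06 and 0.33 ± 0.059, whereas Pank1 fell (-0.31 ± 0.081). Slc25a42, the mitochondrial carrier for coenzyme A, read 61.4, 50, 56.1 and 48.9 and 109.9, 103 and 79.2. The thioesterases Acot9 and Acot13, which hydrolyze acyl-CoA to free CoA, rose by 0.80 ± 0.079 and 1.09 ± 0.2. Acot1 and Acot2, which are near-identical and may share reads, rose by 0.63 ± 0.13 and 0.48 ± 0.11 and also rose in ACSS2 KO. Off the shifted chromosome stretches 7 of 17 remained higher.

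Fatty acid uptake and activation showed 6 higher and 2 lower of 14 tested, but 3 higher without DKO1 replicate 1, and 3 with the spread from the compared libraries alone. The long-chain acyl-CoA synthetase genes Acsl3, Acsl4 and Acsl1 rose by 0.40 ± 0.07, 0.57 ± 0.098 and 0.47 ± 0.13. Acsl1 read 982, 1007, 1078 and 955 in ACLY KO and 1593, 1614 and 1056 in DKO1, so that replicate 4 fell inside the ACLY KO range, and it was not called without DKO1 replicate 1 or 3 (adjusted p up to 0.064). Acsf3, the mitochondrial malonyl-CoA synthetase, read 384, 386, 367 and 369 in ACLY KO and 89.7, 90.4 and 96.7 in DKO1, 4.05-fold lower (adjusted p = 3.5e-08), and it was low in DKO1 alone, with 299 ± 38.9 in WT (SD, n = 4) and 370.3 ± 36.5 in ACSS2 KO (SD, n = 3). Fabp5, a fatty acid binding protein, fell from 571, 553, 592 and 623 to 346, 360.3 and 455.

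Among fatty acid synthesis genes 4 of 22 were higher (18.2%) and 2 were lower (9.09%), against 14.4% and 13.8% of all genes, with a median of 0.0018. Tecr and Elovl1, enzymes of fatty acid elongation, rose by 0.49 ± 0.063 and 0.32 ± 0.057, and Me1, the cytosolic malic enzyme that supplies NADPH, by 0.50 ± 0.054. With a correction for transcript length, Tecr and Elovl1 were not called (0.25 and 0.18, adjusted p of 0.11 and 0.18). Fasn, the fatty acid synthase, read 22055, 19057, 22827 and 17514 in ACLY KO and 33151, 30733 and 12846 in DKO1, and replicate 4 was below and the other DKO1 libraries above every ACLY KO library. The difference was 0.22 ± 0.29 (adjusted p = 0.6) with all libraries and 0.66 (adjusted p = 0.02) without replicate 4. Acacb, the acetyl-CoA carboxylase at mitochondria, read 58.1, 52.8, 50.3 and 62.1 and 24.9, 39.1 and 30.8. Lipid droplet and lipase genes changed one by one: Mgll, the monoglyceride lipase, fell from 124, 107, 106 and 114 to 34.5, 49 and 36.1, Abhd5, the coactivator of triglyceride lipolysis, rose by 0.68 ± 0.07, and Plin2, a droplet coat protein, fell (-0.34 ± 0.073). Of that list 5 were higher (20.8%) and 4 lower (16.7%) of 24, and 3 and 2 without ACLY KO replicate 2.

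In mitochondrial fatty acid oxidation 4 of 25 were higher (16%) and 3 lower (12%), near the shares of all genes (14.4% and 13.8%). Off the shifted stretches 1 of 21 was higher and 3 were lower. Oxct1, which activates ketone bodies for oxidation, read 6257, 6907, 6466 and 6581 in ACLY KO and 3696, 3587 and 4107 in DKO1, a change of -0.79 ± 0.062 (adjusted p = 1.5e-06), against a rise of 0.24 ± 0.062 in ACSS2 KO. Decr1 and Eci2, which process unsaturated acyl chains, rose by 0.74 ± 0.12 and 0.76 ± 0.12. Peroxisomal genes were higher in 8 and lower in 1 of 33, but without DKO1 replicate 4 in 6 and 4. Without ACLY KO replicate 2 or 3, 4 were higher, and 2 with the spread from the compared libraries alone. Cat, the catalase, read 5080.4, 4844, 5064 and 4653 and 7257, 7092 and 5289.5, Phyh, which starts the breakdown of phytanic acid, rose by 0.54 ± 0.091, and Nudt7, a peroxisomal CoA diphosphatase, fell from 185, 170.3, 172 and 175 to 96.4, 93 and 142. Cpt1c, the carnitine palmitoyltransferase isoform best known from neurons, read 10.4, 4.72, 10.2 and 4.88 in ACLY KO, 87.5, 55.2 and 63.9 in DKO1, 64.4, 79, 58.2 and 68.8 in WT and 8.97, 9.38 and 9.34 in ACSS2 KO. The gene was therefore high in DKO1 and WT and low in both single knockouts, and the effects of ACSS2 loss differed by 5.82 ± 0.38 (adjusted p = 2.9e-07).

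**Figure D3:**
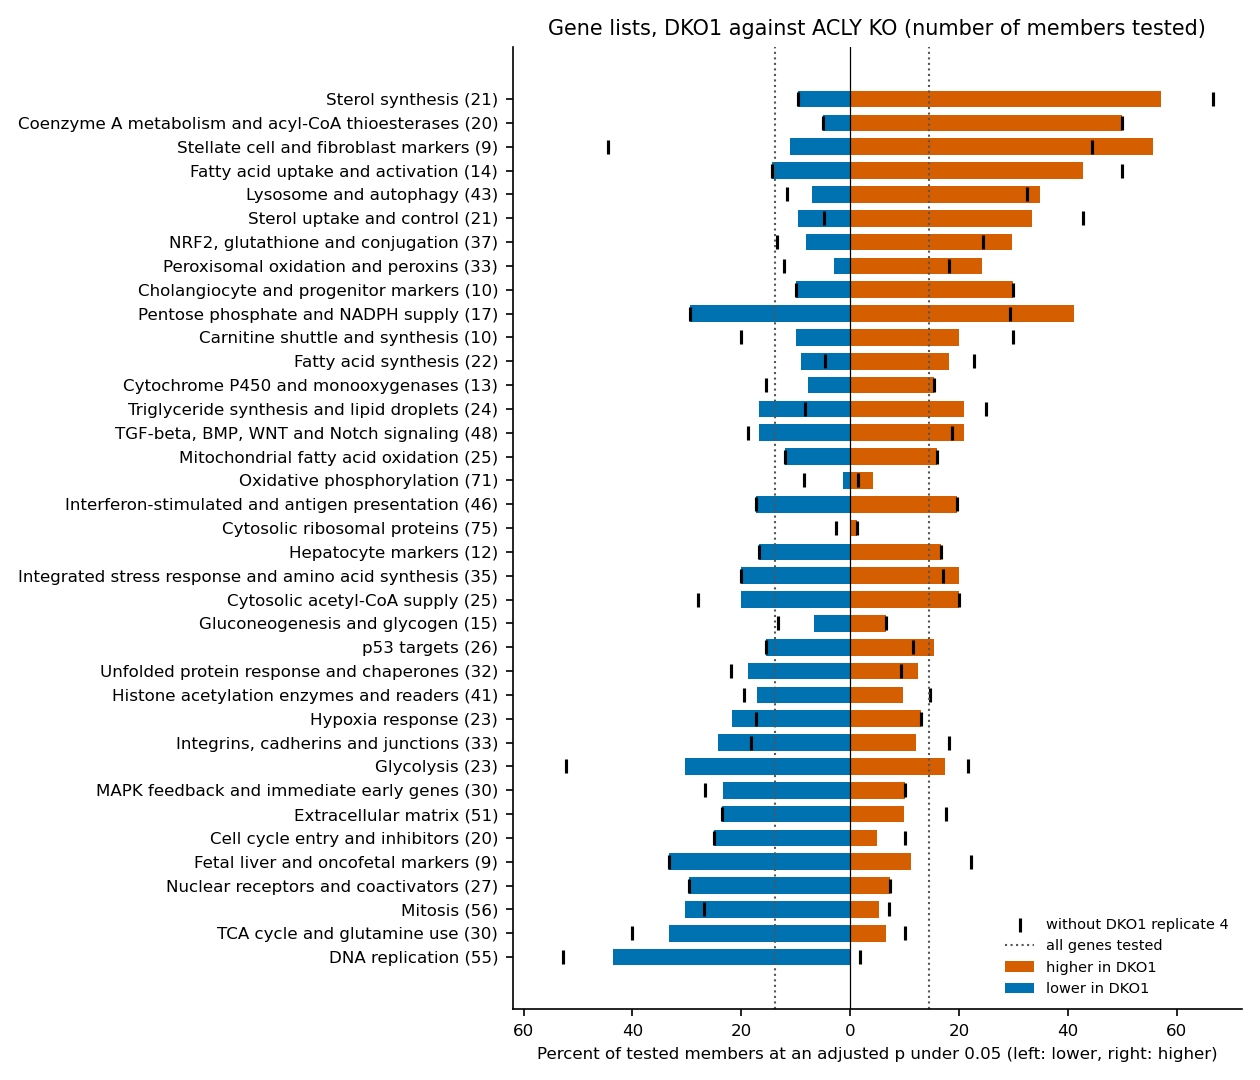
Share of tested members called higher (right) and lower (left) in DKO1 against ACLY KO for each gene list with at least 9 members tested, whose number is in parentheses. Ticks give the shares without DKO1 replicate 4, and dotted lines mark all genes tested, 14.4% higher and 13.8% lower. Sterol synthesis is at the top and DNA replication, with no member called higher with all libraries, is at the bottom.

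Several genes of central carbon metabolism were lower in DKO1. Of 30 genes of the TCA cycle and glutamine use, 2 were higher (6.67%) and 10 lower (33.3%), against 14.4% and 13.8% of all genes. Without DKO1 replicate 4 the counts were 3 and 12. The list median was -0.054 with all libraries. It was -0.22, -0.18 and 0.076 in DKO1 replicates 1, 3 and 4, so replicate 4 did not share the downward median. Cs (citrate synthase) read 8818, 9208, 9213 and 8729 in ACLY KO and 7712, 7463 and 5969 in DKO1. Sdha (succinate dehydrogenase) read 7303, 7302, 7574 and 7528 and 5899, 5690.2 and 5164. In both genes the DKO1 libraries were below every ACLY KO library, with replicate 4 the lowest, and the log2 fold changes were -0.36 ± 0.086 and -0.41 ± 0.056. Ogdh, Dlst and Suclg2, which carry 2-oxoglutarate to succinate, fell, with log2 fold changes of -0.53 ± 0.15, -0.29 ± 0.047 and -0.24 ± 0.06. So did the glutamine transporter Slc1a5 (-0.51 ± 0.072) and the aspartate transaminases Got1 (-0.45 ± 0.073) and Got2 (-0.31 ± 0.066). The aspartate-glutamate carriers moved apart, with Slc25a12 lower (-0.32 ± 0.057) and Slc25a13 higher (0.73 ± 0.073). In ACSS2 KO against WT 5 genes of this list were higher and none was lower. Cs rose there by 0.42 ± 0.086, and its effects differed by -0.78 ± 0.12 (adjusted p = 0.0004).

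Glycolysis genes were higher in 4 (17.4%) and lower in 7 (30.4%) of 23, against 14.4% and 13.8% of all genes. Without DKO1 replicate 4 the counts were 5 and 12. The list medians were -0.22, -0.25 and 0.0073 in DKO1 replicates 1, 3 and 4. Slc2a1, the glucose transporter GLUT1, read 4031, 3928, 4090 and 4127 in ACLY KO and 2573, 2679.7 and 2848 in DKO1, and Hk2, the inducible hexokinase, read 2393, 2313, 2305 and 2090 and 1661, 1621 and 1334. Pfkm, a muscle-type phosphofructokinase, fell (-0.60 ± 0.052, adjusted p = 3.7e-06), while Pfkp, the platelet type on the shifted stretch of chromosome 13, rose by 0.72 ± 0.1. Pklr, the liver pyruvate kinase, read 97, 106, 126 and 112 and 52.5, 44.1 and 37.9. Of the 4 genes that rose, 1 lay outside the shifted chromosome stretches. NADPH supply split by enzyme. Pgd, the second dehydrogenase of the pentose phosphate pathway, read 3426, 3420.1, 3453 and 3548 in ACLY KO and 5240.1, 5545 and 7299 in DKO1, whereas the first, G6pdx, read 827, 748, 871 and 778 and 596, 579 and 480.1. Idh1, the cytosolic isocitrate dehydrogenase, rose by 0.73 ± 0.081, and its mitochondrial counterpart Idh2 fell (-0.29 ± 0.079), though not without DKO1 replicate 1 or 3 (adjusted p up to 0.058). Nadk rose by 0.21 ± 0.066 (adjusted p of 0.0026 to 0.095 when single libraries were left out) and the mitochondrial NAD kinase Nadk2 fell (-0.51 ± 0.079). G6pdx moved the other way in ACSS2 KO (0.69 ± 0.099), a difference between the effects of -1.24 ± 0.14 (adjusted p = 3.2e-05).

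Oxidative phosphorylation and ribosomal protein genes carried the trend of 1 library. In DKO1 replicate 4 the median over 71 oxidative phosphorylation genes was 1.11 above the ACLY KO mean (log2), against -0.25 in replicate 1 and -0.071 in replicate 3. For 75 cytosolic ribosomal protein genes the medians were 1.11, -0.25 and -0.06 in the same order. Few members were called, 3 and 1 higher and 1 and 0 lower, and the list medians changed sign without replicate 4, from 0.26 to -0.16 and from 0.26 to -0.17. No direction was drawn for either list.

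**Figure D4:**
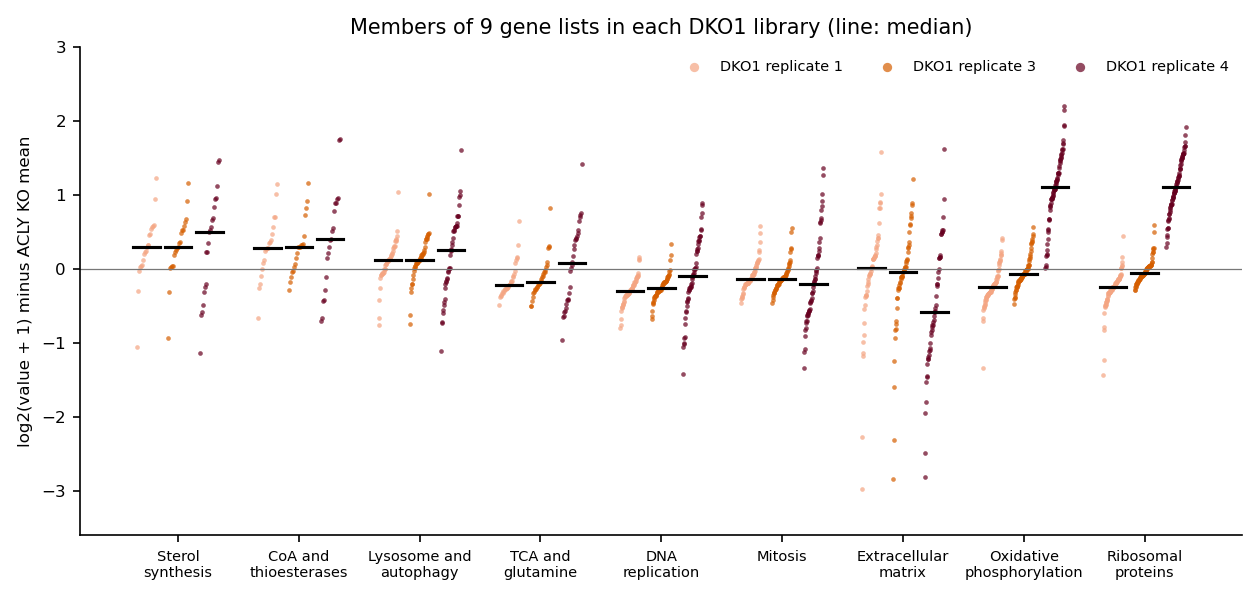
Each point is a member of 1 of 9 gene lists in 1 DKO1 library, as log2(value + 1) minus the ACLY KO mean, and black lines are medians. Sterol synthesis lies above 0 and DNA replication below 0 in all 3 libraries, while oxidative phosphorylation and ribosomal proteins lie above 1 in replicate 4 and below 0 in the others.

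Many DNA replication genes fell. Of 55 tested, 0 were higher and 24 lower, with a median of -0.20, and without DKO1 replicate 4 the counts were 1 and 29. Medians were -0.31, -0.26 and -0.094 in DKO1 replicates 1, 3 and 4. An E2F site of the spellings searched (TTTGGCGC, TTTCCCGC, TTTCGCGC or TTTGCCGC, on either strand) was in 17 of the 46 members with a promoter window (37.0%), against 2.6% of all genes and 4.76% of those tested. It was in 12 of the 22 that fell (54.5%) and in 5 of the 24 that were not called (20.8%). A member of the replicative helicase and a chromatin factor of S phase are shown with their matches in capitals, and a mitotic cyclin with its CCAAT box, each as the 250 bases before the start on the strand of the gene (RefSeq, GRCm38.p6).
Mcm6 (chr1:128359706-128359955, - strand): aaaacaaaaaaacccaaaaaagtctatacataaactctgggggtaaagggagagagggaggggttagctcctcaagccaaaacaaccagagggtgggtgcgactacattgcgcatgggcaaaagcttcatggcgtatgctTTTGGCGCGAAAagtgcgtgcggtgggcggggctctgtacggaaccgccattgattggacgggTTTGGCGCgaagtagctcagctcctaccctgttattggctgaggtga
Uhrf1 (chr17:56304063-56304312, + strand): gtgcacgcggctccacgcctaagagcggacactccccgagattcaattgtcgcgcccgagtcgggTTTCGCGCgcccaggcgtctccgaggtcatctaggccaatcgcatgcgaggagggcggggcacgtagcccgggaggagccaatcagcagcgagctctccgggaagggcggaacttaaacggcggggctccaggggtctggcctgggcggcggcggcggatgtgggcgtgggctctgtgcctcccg
Ccnb1 (chr13:100786487-100786736, - strand): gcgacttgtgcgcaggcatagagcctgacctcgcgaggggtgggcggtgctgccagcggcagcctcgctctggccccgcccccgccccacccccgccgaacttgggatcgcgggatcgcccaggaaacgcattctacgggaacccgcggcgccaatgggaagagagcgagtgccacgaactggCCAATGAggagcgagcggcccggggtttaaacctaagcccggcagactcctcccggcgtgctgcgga

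All 6 genes of the MCM2-7 helicase, which unwinds DNA at the fork, fell. Mcm4 read 5415, 5443, 5572 and 5393 in ACLY KO and 3776, 3679 and 3258 in DKO1 (log2 fold change -0.61 ± 0.058, adjusted p = 7.9e-06). Mcm6 read 6871, 7374, 7347 and 7173 and 5907, 5831 and 5411, and Mcm5, the smallest change of the 6, read 6453, 6418, 6329 and 6415 and 5116, 5666 and 5844 (-0.21 ± 0.055). Within each gene the highest DKO1 library was below the lowest ACLY KO library. The share of all genes without overlap is not given here, so this is only a description. The call of Mcm5 was lost with the spread from the compared libraries alone (adjusted p = 0.091). The licensing factors Cdt1 and Cdc6, which load the helicase, fell, with log2 fold changes of -0.65 ± 0.083 and -0.43 ± 0.065. Uhrf1, which guides DNA methylation to newly replicated DNA, read 6268, 5863, 6138 and 5668 and 3528, 3719 and 3119, and Dnmt1, the methyltransferase it recruits, 6512, 6502, 6597 and 6003 and 5014, 4977 and 3064. Lig1 and Fen1, which join Okazaki fragments, and the primase and polymerase alpha genes Prim2, Pola1 and Pola2 also fell. When single libraries were left out, the adjusted p was 0.0018 to 0.093 for Fen1 and 0.0092 to 0.054 for Pola1. In ACSS2 KO against WT 3 members were higher and 4 lower. Mcm6 rose there by 0.22 ± 0.052, so that its effects differed by -0.55 ± 0.073 (adjusted p = 0.00011).

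Mitotic genes fell in 17 and rose in 3 of 56, and fell in 15 and rose in 4 without DKO1 replicate 4. Without ACLY KO replicate 2, 11 fell, and 6 with the spread from the compared libraries alone. Plk1, a kinase of mitotic entry, read 2836, 2819.7, 3043 and 2981 in ACLY KO and 2205, 2180.2 and 1922 in DKO1. Racgap1 and Kif23, which form the centralspindlin complex of cytokinesis, fell (-0.38 ± 0.051 and -0.37 ± 0.054), as did Ccnb1 (-0.25 ± 0.056). Cks2 and Kif4, in the shifted stretches of chromosomes 13 and X, and Nusap1 rose, with the call of Kif4 kept only without DKO1 replicate 4 when single libraries were left out (adjusted p of 3.2e-05 to 0.16). A CHR element (spelled TTTGAA, or with a single change TTCGAA, on either strand) was in 34 of the 46 mitotic genes with a promoter window (73.9%), against 21.7% of all genes and 16.5% of those tested. It was in 11 of the 14 that fell (78.6%), in 22 of the 29 that were not called (75.9%) and in 1 of the 3 that rose. A CCAAT box was in 25 of the 46 (54.3%). Upstream in the cycle, Ccnd1, the cyclin of G1, read 15271, 14779, 15706 and 14972 in ACLY KO and 11201, 11397 and 10257 in DKO1, and Ccnd2 read 10374, 9163, 9650 and 8192 and 5536, 5506 and 4717. The transcription factor genes E2f4 and Mycn fell (-0.41 ± 0.05 and -1.15 ± 0.14). Cdkn1a, which encodes the inhibitor p21, rose from 219, 225, 227 and 231 to 317, 361 and 409. With all libraries it was the only one of 20 cell cycle entry genes that rose, and 5 fell. Targets of p53 were higher in 4 (15.4%) and lower in 4 (15.4%) of 26, near the shares of all genes (14.4% and 13.8%). Without DKO1 replicate 1, 7 were lower, and without ACLY KO replicate 3, 2 were higher. Ccng1 was higher by 0.44 ± 0.067, and the death receptor Fas was lower at 16.8, 23 and 36.3 against 66.8, 64.6, 75.1 and 85.2.

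The integrated stress response, through which ATF4 raises amino acid synthesis and transport, was split. Of 35 genes tested, 7 were higher (20%) and 7 lower (20%), against 14.4% and 13.8% of all genes. Trib3, Chac1, Atf3, Gdf15 and Nupr1, which are stress effectors, rose by 0.65 ± 0.14, 0.41 ± 0.071, 0.44 ± 0.12, 1.10 ± 0.26 and 0.60 ± 0.16. Cth, which makes cysteine from cystathionine, fell from 119.7, 101, 102 and 163 in ACLY KO to 30.6, 31.1 and 40.5 in DKO1. Slc7a11, the cystine importer, fell from 628, 635, 687 and 579 to 312, 282 and 278, and Psat1 of serine synthesis from 17929.7, 18821, 17923 and 18703 to 12743, 13168 and 13261. Aldh18a1, which starts proline synthesis, fell (-0.41 ± 0.11), while Pycr1, its last step, rose by 0.50 ± 0.11. In ACLY-proficient cells 25 members were higher and 1 lower in ACSS2 KO, with a median of 0.73, and the effects differed for 21 members. Cth rose there from 80.9, 78.9, 78.3 and 69.3 to 199, 153 and 261, and its effects differed by -3.16 ± 0.28 (adjusted p = 3.7e-06). Sesn2, which restrains mTORC1, rose in ACSS2 KO by 1.81 ± 0.17 and fell in DKO1 (-0.52 ± 0.17), though not without replicate 4 (adjusted p = 0.06) or without ACLY KO replicate 1, 2 or 3.

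Antioxidant genes that respond to NRF2 were higher in 11 and lower in 3 of 37 tested, and in 9 and 5 without DKO1 replicate 4, when the median moved from 0.32 to 0.053. Without ACLY KO replicate 3, 7 were higher. Hmox1 (heme oxygenase) read 787, 789, 849.7 and 818 in ACLY KO and 1805, 1866 and 2137 in DKO1, Srxn1 (sulfiredoxin) 2351, 2433, 2565 and 2448 and 4164, 4048 and 4122, and Nqo1 (a quinone reductase) 40.4, 40.5, 36 and 38.3 and 118, 97.6 and 131. The log2 fold changes of these 3 genes were 1.25 ± 0.081, 0.75 ± 0.053 and 1.54 ± 0.28. Gss and Gclc of glutathione synthesis rose by 0.74 ± 0.13 and 0.34 ± 0.11. Gsr, the glutathione reductase, fell (-0.23 ± 0.074). When single libraries were left out, the adjusted p was 0.00011 to 0.12 for Gclc and 0.0022 to 0.13 for Gsr. Srxn1 fell in ACSS2 KO from 1688, 1706, 1719 and 1615 to 1329.9, 1231 and 1259.7, and its effects differed by 1.15 ± 0.074 (adjusted p = 2.9e-07). Members of the Gsta and Gstm families may share reads. In the list of chaperones and the unfolded protein response 4 rose (12.5%) and 6 fell (18.8%) of 32, against 14.4% and 13.8% of all genes. Without ACLY KO replicate 1, 2 or 3, 2 rose and 2 fell. The mitochondrial chaperonin Hspd1 was lower (28883, 29849, 29762 and 30328 against 22255, 22331 and 21346).

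Interferon-stimulated and antigen presentation genes were called in both directions. Of 46 tested, 9 were higher (19.6%) and 8 lower (17.4%), against 14.4% and 13.8% of all genes. The counts were 9 and 8 without DKO1 replicate 4, whereas 5 were higher without ACLY KO replicate 2 or DKO1 replicate 3, and the median moved from 0.18 to -0.024 without the former and to 0.00063 without the latter. Isg15, a ubiquitin-like modifier, read 126, 147, 234 and 191 in ACLY KO and 266, 393 and 551 in DKO1, Ifit3, which binds viral RNA complexes, 477, 447, 543 and 448 and 797, 909 and 830.4, and Stat2, the interferon signal transducer, 259, 252, 273 and 261 and 491, 474 and 279. Stat2 was not called without DKO1 replicate 1 or 3 (adjusted p up to 0.063). Ifit3 and Ifit3b are near-identical and may share reads. The peptide transporter and immunoproteasome genes, which lie side by side on chromosome 17, were lower: Tap1 read 112, 116, 158 and 112 in ACLY KO and 61.7, 66 and 78.2 in DKO1, and the log2 fold changes of Tap2, Psmb8 and Psmb9 were -0.66 ± 0.15, -0.89 ± 0.21 and -1.53 ± 0.34. In ACSS2 KO against WT these 4 rose by 1.31 ± 0.14, 1.03 ± 0.15, 1.83 ± 0.21 and 1.18 ± 0.34, and all 4 differed between the backgrounds (adjusted p of 7.2e-06, 9.8e-05, 2.6e-05 and 0.001). The class I chains H2-D1 and H2-K1 and B2m rose in DKO1, by 0.34 ± 0.11, 0.45 ± 0.16 and 0.25 ± 0.075, and none of these 3 was called without replicate 4.

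Extracellular matrix genes were higher in 5 and lower in 12 of 51, against 9 and 12 without DKO1 replicate 4, and the median moved from -0.21 to -0.033. Without ACLY KO replicate 2 or 3 or DKO1 replicate 1 or 3, 3 were higher. Besides the collagens given above, the laminin chain Lamb3 fell from 2782, 2935, 3001 and 2964 to 1563, 1653 and 1460.3, the metalloproteinase inhibitor Timp3 from 2490.4, 2339.7, 2407 and 2277 to 1201, 1238 and 1399, and the collagen cross-linking enzyme Loxl3 (-0.89 ± 0.098). Timp2 rose by 0.42 ± 0.052. Col1a2, the partner chain of Col1a1 in type I collagen, rose, from 49.1, 64.6, 52 and 57.7 to 113, 94.5 and 90.8, so the chains moved in opposite directions, but the call of Col1a2 was lost without any single library other than DKO1 replicate 4 (adjusted p of 0.044 to 0.093 over these and DKO1 replicate 4). Among adhesion genes Itgb3 (integrin beta 3) read 200, 202, 198 and 193 in ACLY KO and 67.4, 62.5 and 61.3 in DKO1, Itgb6 3306, 3076, 3394 and 3278 and 2482, 2349.9 and 1898, both lower in all 3 DKO1 libraries. Itgb4, the hemidesmosome integrin, rose from 6.87, 8.56, 4.95 and 8.09 to 29.4, 25.6 and 26.8. Of 33 members of that list 4 rose (12.1%) and 8 fell (24.2%), against 14.4% and 13.8% of all genes. Without DKO1 replicate 4, 6 rose and 6 fell.

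Of 48 genes of TGF-beta, BMP, WNT and Notch signaling, 10 rose (20.8%) and 8 fell (16.7%), against 14.4% and 13.8% of all genes. Off the shifted stretches 5 of 43 rose, and 13 of all 48 fell without DKO1 replicate 1. Bmp6, Wnt5a and Inhba, which are secreted growth factors, rose by 0.65 ± 0.073, 0.84 ± 0.13 and 0.60 ± 0.11, and Tgfb1 fell from 282, 276, 272 and 301 to 189, 141 and 155. Smad7 and Skil, inhibitors within the TGF-beta pathway that its signaling induces, fell (-0.34 ± 0.071 and -0.59 ± 0.13), as did the receptor Tgfbr1 (-0.67 ± 0.18). Cyr61, a matricellular target of YAP, rose from 34592, 34861, 33919.9 and 34012 to 46092, 49894 and 45707. The MAPK phosphatase Dusp2 read 88.4, 77.9, 75.1 and 82.2 in ACLY KO and 19.9, 12.2 and 24.5 in DKO1, while Dusp1 rose by 0.55 ± 0.069. Of 30 MAPK feedback genes 3 rose (10%) and 7 fell (23.3%), and 4 fell without ACLY KO replicate 2. Hypoxia genes were called in both directions, 3 higher and 5 lower of 23, against 14.4% and 13.8% of all genes. Without DKO1 replicate 3, 3 were higher and 2 lower, so no direction was drawn for this list.

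Lysosome and autophagy genes were higher in 15 and lower in 3 of 43, and in 14 and 5 without DKO1 replicate 4. The cathepsin gene Ctsb read 9347, 9937, 9600.2 and 9872 in ACLY KO and 12528, 13432 and 15879 in DKO1, and the lysosomal galactosidase gene Glb1 1441, 1476, 1581 and 1559.6 and 1971, 2096 and 2238. Atp6v1b2, a subunit of the proton pump, rose by 0.42 ± 0.048, and Atp6v1h, another subunit, fell (-0.57 ± 0.12). The autophagy genes Atg12, Wipi1, Gabarapl1 and Becn1 rose by 0.45 ± 0.073, 0.87 ± 0.15, 0.30 ± 0.06 and 0.34 ± 0.075. In ACSS2 KO against WT 14 members were higher and none was lower, so calls were mostly upward in both backgrounds. Ctsb rose there by 0.27 ± 0.076 and Gabarapl1 by 0.42 ± 0.06, and neither differed between the backgrounds (adjusted p of 0.11 and 0.33), with differences of 0.25 ± 0.11 and -0.12 ± 0.085.

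Enzymes and readers of histone acetylation, which uses the acetyl-CoA that ACLY and ACSS2 supply, were called higher in 4 and lower in 7 of 41. These shares were near those of all genes. The bromodomain readers Brd2 and Brd3 rose by 0.42 ± 0.062 and 0.29 ± 0.062, with Brd2 at 11214, 11029, 11184 and 11163 in ACLY KO and 15591, 14441 and 14829.5 in DKO1. The acetyltransferase Kat2a fell (-0.37 ± 0.076). Sirt1, an NAD-dependent deacetylase, read 98.3, 97.2, 106 and 98.8 in ACLY KO and 56.7, 62.7 and 79.1 in DKO1, both far below the WT values of 404, 369, 479 and 433. Nuclear receptors and coactivators were higher in 2 and lower in 8 of 27. Esrrg, an estrogen-related receptor, fell from 31.3, 28.5, 37.9 and 20.8 to 2.05, 2.93 and 3.33. The retinoid-related orphan receptor Rora fell from 138, 93.1, 84.1 and 109 to 48.1, 47.8 and 49.1. Ppargc1a, the coactivator of mitochondrial gene expression, fell (-0.59 ± 0.14) and rose in ACSS2 KO by 1.79 ± 0.14. Vdr, the vitamin D receptor, and Ppara, the receptor that induces fatty acid oxidation, rose to 212, 186 and 127 and 78.5, 51.2 and 32.5 from 76.3, 75.4, 76 and 53.6 and 22.6, 21.7, 18 and 15. In ACSS2 KO 10 members of this list were higher and 2 lower.

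Markers of other cell types are given by whole list. Of 10 cholangiocyte and progenitor markers tested, 3 were higher and 1 lower, with a median of 0.069 that became -0.13 without DKO1 replicate 4. Their sum ranged from 33035 to 35097 in ACLY KO and from 46537 to 72416 in DKO1, with Krt7 and Spp1 higher by 1.04 ± 0.14 and 0.85 ± 0.13 and the water channel Aqp1 lower (-1.04 ± 0.059). Stellate cell and fibroblast markers summed to 7454 to 7723 in ACLY KO and to 8631 to 15853 in DKO1, 5 higher and 1 lower of 9 tested, and 4 and 4 without DKO1 replicate 4. Without any other single library 3 were higher. Tagln, an actin-binding protein, rose from 3856, 3936, 3473 and 3994 to 6369, 7332 and 13690.1. Endothelial markers, with Cldn5 at 0 in all 7 libraries, summed to 126 to 147 in ACLY KO and to 69.4 to 102 in DKO1, and 0 were higher and 1 lower of 3 tested. Immune markers, with Ms4a1 at 0 in all 7 libraries, summed to 1161 to 1252 and to 1085 to 1547, and 0 were higher and 0 lower of 3 tested. Hepatocyte markers had 2 higher (Tat and Apob) and 2 lower (Alb and Prox1) of 12 tested, with Apob not called without DKO1 replicate 1 or 3, and fetal liver markers 1 and 3 of 9, with the RNA-binding gene Igf2bp3 lower at 249, 288 and 306 against 600.1, 522, 567 and 553. Whether more cells of a type or more RNA per cell was present cannot be told apart in bulk samples, and the part of these markers in the other results was not tested.

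Fold changes were not even along the chromosomes. The boundaries were set after the values were seen, and the counts are a description. On chromosome 13, 186 of the 277 tested genes that start before 66 Mb were higher and 3 were lower in DKO1, with a median log2 fold change of 0.57, whereas beyond 66 Mb 20 of 199 were higher and 45 were lower, with a median of -0.12. The first stretch had medians of 0.58, 0.57 and 0.63 in DKO1 replicates 1, 3 and 4 and of 0.015 in ACSS2 KO against WT. On chromosome X the 182 genes beyond 95 Mb had a median of 0.42 (89 higher and 6 lower) and the 207 before it a median of -0.085. Beyond 110 Mb of chromosome 11, 81 of 162 genes were higher and 4 were lower, with a median of 0.39, and between 57 and 80 Mb of chromosome 8, 72 of 139 were higher and 3 were lower, with a median of 0.42. From position 129269177 of chromosome 3 on, 39 of 106 were higher and 9 were lower. Chromosomes 15 and 19 were shifted down over most of their length, with medians of -0.19 and -0.17 and with 160 of 512 and 128 of 463 genes lower. On chromosome 2, which holds Acss2, 200 of 1019 genes were higher and 83 were lower, with a median of 0.11. On chromosome 10, 29 of 617 were higher and 109 were lower, with a median of -0.070. None of the sources used here describes DNA copy number, and its part in these shifts was not tested. Acly and Acss2 lie outside the stretches of chromosomes 13, X, 11, 8 and 3. Counts off the shifted stretches left out only the stretches of chromosomes 13, X, 11, 8 and 3. Genes of chromosomes 2, 10, 15 and 19 were kept in those counts, and changes named above that lie there are not listed below. Of the genes described above, Acot13, Bmp6, Cks2, Eci2, Ggps1, Hist1h2bc, Idi1, Inhba and Pfkp lie in the stretch of chromosome 13, Acot9, Acsl4, Cldn2, Kif4, Pdha1, S100g and Sat1 in that of X, Fasn, Itgb4, Pycr1 and Timp2 in that of 11, Atp6v1b2, Gdf15, Hmox1, Mcm5, Msmo1 and Slc25a42 in that of 8, and Cth and Cyr61 in that of 3.

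**Figure D5:**
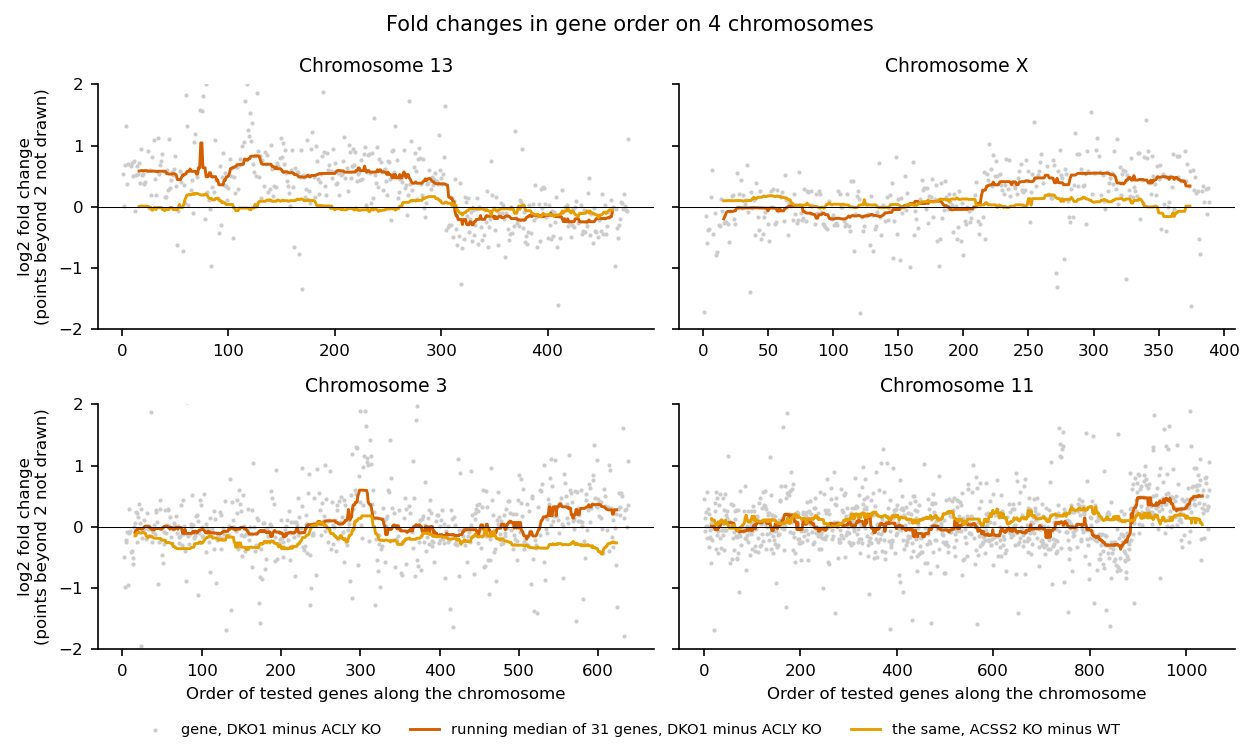
Log2 fold changes of tested genes in their order along chromosomes 13, X, 3 and 11, with gray points for DKO1 minus ACLY KO and lines for the running median of 31 genes in DKO1 minus ACLY KO and in ACSS2 KO minus WT. The DKO1 line steps down from about 0.57 to -0.12 on chromosome 13 and steps up on X, 3 and 11, while the ACSS2 KO line has no step at these places.

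The same gene deletion was compared in ACLY-proficient cells, between libraries that share the fitted spread, but no sample, with the comparison of DKO1 and ACLY KO. ACSS2 KO against WT gave 1817 higher (14.3%) and 1355 lower (10.7%) of the same genes. Genes called in both comparisons numbered 1290, which is 36.0% of the 3582 calls in ACLY-deficient cells and 40.7% of the 3172 in ACLY-proficient cells. Of these, 691 moved the same way and 599 moved in opposite directions, 241 higher in DKO1 and lower in ACSS2 KO and 358 the reverse. The difference between the effects passed the test for 3365 genes (26.5%), the 599 included. Genes that moved the same way included Acss2 itself, the kinase gene Plk2, at -0.49 ± 0.059 in DKO1 and -0.88 ± 0.059 in ACSS2 KO, Lamb3, at -0.91 ± 0.057 and -1.18 ± 0.057, and the lipid droplet gene Plin2, at -0.34 ± 0.073 and -0.47 ± 0.073. For the last of these the effects did not differ beyond the threshold (0.14 ± 0.1, adjusted p = 0.35).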

How the data were processed

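Poly(A) RNA from 14 libraries was sequenced single-end with a strand-marking kit. The authors aligned reads to the mouse genome (GRCm38, mm10) with STAR and deposited one table of DESeq-normalized read counts per gene, which are signal values in units of reads that are not whole. DESeq2 1.0.1 is named in the submitters' processing notes. How reads were assigned to genes, and with which annotation, is not given in the sources used here. Raw counts could not be recovered from these values, so depth was judged only by their totals, and no count model was run.

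Values were transformed as log2(value + 1), which understates changes of low genes. Genes with a mean of at least 10 over the 7 ACLY KO and DKO1 libraries were fitted with limma 3.58.1 (R 4.3.3, intensity trend) in 1 model of the 4 genotypes over all 14 libraries, and p-values were adjusted by the Benjamini-Hochberg method over 12683 genes. The groups followed the deposited labels. The fit was tested on simulated data. Positions and promoters came from RefSeq (GRCm38.p6), matched by symbol for 24407 of 24972 genes and by synonym for 447. Transcript lengths came from the GENCODE annotation, as the longest transcript of each gene symbol.

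The comparison, gene lists and motifs were chosen with earlier results of these data known. Named were Acly and Acss2, the 15 largest rises and falls with a mean of at least 50 and separate groups, the 8 largest with a mean of at least 1000, the 4 members of each list with the lowest adjusted p and the members that define pathway steps. Other members named, and the neighbors of Acss2, were chosen after their values were seen. Some genes that this rule takes in are not reported here. Alternatives were other added constants, filters, scalings, library weights, a length correction, a replicate block and leaving out each library.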

Additional observations from a re-analysis of the deposited data

Results flagged for a closer look

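Genes named in the text were listed where the effects of ACSS2 loss had opposite signs in the ACLY-deficient and ACLY-proficient cells, both passed an adjusted p under 0.05, and the tested difference between them exceeded 2 on the log2 scale. The adjusted p of the difference (limma) ranged from 4.8e-10 to 0.0014. The difference, given in parentheses, was positive, so that DKO1 rose and ACSS2 KO fell, for Ddx3y (6.05), Kdm5d (6.02), Eif2s3y (5.93), Uty (5.86), Cpt1c (5.82), 3830406C13Rik (3.56), Apob (3.36), Inhba (2.95) and Itgb4 (2.87). It was negative, with DKO1 lower and ACSS2 KO higher, for Ogdhl (-4.24), Rap1gap2 (-3.32), Zfp532 (-3.31), Dusp2 (-3.30), Prox1 (-3.18), Cth (-3.16), Alb (-3.11), Ms4a4d (-3.10), Ddr2 (-3.08) and Igf2bp3 (-2.79). The same direction with smaller differences was seen for Psmb8 (-2.72), Psmb9 (-2.71), Fas (-2.68), Col1a1 (-2.65), Ppargc1a (-2.38), Sesn2 (-2.34), Acsf3 (-2.33), Slc7a11 (-2.30), Pklr (-2.15), Rora (-2.15) and Tap1 (-2.15). The genes of chromosome Y are among the first set. The clone and the genotype cannot be told apart in either comparison.

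In the 4 ACLY KO libraries, 14 of 234 named genes had 1 library whose gap to the nearest other, divided by the range, exceeded Dixon's critical value for 4 samples. Chance flags about 1 in 20 groups. Replicate 1 stood apart for Acly (0.846) and Eif2s3y (0.902). Replicate 2 stood apart for 4930447F24Rik (0.944). Replicate 3 stood apart for Casd1 (0.882), Gc (0.878), Got2 (0.833), Prox1 (0.956) and Tap1 (0.903). Replicate 4 stood apart for Atp6v1h (0.877), Ddr2 (0.908), Dnmt1 (0.840), Epha7 (0.848), Unc5b (0.842) and Vdr (0.961).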

How the results depend on the processing

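The 3582 calls in DKO1 against ACLY KO became 2231 (1165 higher and 1066 lower) when only these 7 libraries estimated the spread, and 6739 (3339 higher and 3400 lower) with library weights, under which ACSS2 KO against WT gave 6083 and the difference between the effects 6084. These weights were 0.0477 for DKO1 replicate 4 and 0.147 for WT replicate 2. Requiring at least 10 in every library left 181 of 278 large changes among fewer genes. Removing a trend on transcript length gave 5047 (2343 higher and 2704 lower) in DKO1 against ACLY KO. The same correction gave 5156 (2168 higher and 2988 lower) in ACSS2 KO against WT. Equal library totals split ACSS2 KO against WT 2447 to 781 and the difference between the effects 961 to 2429, with medians of all genes at 0.10 and -0.15. Leaving out each library in turn gave 2778 to 4099 calls, 246 to 275 large changes, 2237 to 2970 calls in ACSS2 KO against WT and 2580 to 4179 for the difference. Samples that share a replicate number did not all deviate together (r of 0.0518, 0.288 and 0.458 for numbers 1, 3 and 4), and DKO1 replicate 1 correlated best with ACLY KO replicate 3. With a replicate block the counts were 3165, 256, 2799 and 3075 in the same order. Directions reversed as follows. B2m changed from 0.25 to -0.084 with the transcript length correction. Hsd17b7 changed from -0.0027 to 0.24 with library weights and to between -0.16 and 0.29 when single libraries were left out, and was not called with all of them. Of 225 named genes called in DKO1, 179 were called under every alternative and 214 without DKO1 replicate 4. The 22 called genes that lost the call without at least 1 other single library were Acsl1, Apob, B2m, Col1a2, Cyp51, Fen1, Flg2, Gclc, Gsr, H2-D1, H2-K1, Idh2, Kif4, Kprp, Lor, Nadk, Pakap, Pcx, Pola1, Sesn2, Srebf2 and Stat2. Calls lost with the transcript length correction included those of Acacb, B2m, Chac1, Elovl1, Gabarapl1, Nsdhl, Nupr1, Pank1, Slc25a12, Smad7 and Tecr. With the spread from the compared libraries alone, lost calls included Aldh18a1, Cat, Ccnb1, Cs, Dnmt1, Gdf15 and Mcm5. They also included Mvd, Ogdh, Pank1, Ppargc1a, Sc5d and Tgfbr1. The adjusted p (limma) of these genes was then 0.0515 to 0.0908. Sterol synthesis genes called higher numbered 9 to 15 over the settings and DNA replication genes called lower 14 to 42. Depth could not be assessed beyond the totals, since the values are normalized. The cause of these changes was not tested.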

Other observations

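Between 90 and 94 Mb of chromosome 3, which holds the epidermal differentiation complex of genes for proteins of the outer skin, 11 of 47 tested genes were higher in DKO1 and 3 were lower, with medians of 0.14, 0.19 and 0.61 (log2) in DKO1 replicates 1, 3 and 4. Genes of low level there included 4 that were called higher. Lor (loricrin) read 32.7, 32.5, 35.8 and 37.9 in ACLY KO and 88.6, 43.4 and 171 in DKO1, Flg2 (filaggrin 2) 21.2, 15.1, 11.1 and 14.8 and 43.5, 26 and 65.3, Kprp 11.7, 14.1, 8.53 and 4.93 and 30.9, 23 and 41.1, and Sprr2i 2.36, 5.64, 6 and 4.15 and 14.2, 13.5 and 33.5. All 4 were called with all libraries, and none was called without DKO1 replicate 4, in which each was highest. They were chosen after their values were seen.

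Among cytochrome P450 and monooxygenase genes 2 rose (15.4%) and 1 fell (7.69%) of 13 tested, against 14.4% and 13.8% of all genes. Cyp3a13, a drug-metabolizing P450, read 143, 120.1, 139 and 119 in ACLY KO and 297, 305 and 388 in DKO1, with all DKO1 libraries higher. Cyp2s1, an extrahepatic P450, fell from 126 ± 2.32 (SD, n = 4) to 67.6 ± 5.11 (SD, n = 3), and from 329.7, 271, 334 and 347 in WT to 52.3, 52.5 and 54 in ACSS2 KO. In gluconeogenesis and glycogen metabolism 1 gene rose (6.67%) and 1 fell (6.67%) of 15: Ugp2, which makes UDP-glucose, was 3015, 2937, 3149 and 3188 and 3488, 3686 and 3840, and Pcx, the pyruvate carboxylase, 957, 993, 974 and 980.3 and 865, 847 and 652. Pcx was not called without DKO1 replicate 4 (-0.19, adjusted p = 0.056) or without ACLY KO replicate 2 or 3.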
